A study of Mus musculus with 20 samples.

Results

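Retinoic acid is made from vitamin A inside the embryo and acts on the forming heart through nuclear receptors. Retinol enters cells through the membrane receptor Stra6, retinaldehyde is oxidised to retinoic acid by the Aldh1a enzymes, Crabp proteins carry retinoic acid in the cytoplasm, Rara and Rarb are receptors that regulate genes when retinoic acid binds them, and Cyp26 enzymes break it down. In the heart Aldh1a2 is known from the epicardium, the outer layer that grows over the myocardium, and too much or too little retinoic acid disturbs growth of the ventricles and the outflow tract.

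The genes described here were 9 members of this pathway chosen by name: Aldh1a1, Aldh1a2 and Aldh1a3 for synthesis, Stra6 for uptake, Crabp1 and Crabp2 as carriers, Rara and Rarb as receptors and Cyp26b1 for degradation. All 9 were found by symbol among the 33495 genes of the deposited count table and all passed the filter on low counts in every comparison. The table holds RNA-seq of embryonic mouse hearts on a C57BL/6 background, in 20 libraries, in which Kmt2d, a histone H3 lysine 4 methyltransferase, was deleted with 3 Cre drivers. Mesp1Cre acts in early mesoderm, and those libraries were E9.0 whole hearts of 4 mutants and 4 controls. Mef2cAHF::Cre acts in precursors of the anterior heart field, and those were E11.5 right ventricle with outflow tract of 3 and 3. Tnnt2::Cre acts in cardiomyocytes, and those were E11.5 whole hearts of 3 and 3. Mutants carried the Cre, Kmt2d fl/fl and mTmG/+, and controls carried the same Cre, Kmt2d fl/+ and mTmG/+, so that the controls also lose 1 copy of Kmt2d where the Cre acts and each heart holds cells the Cre does not reach. Per the labels the mutants and controls of a set, 6 or 8 indexed libraries, were sequenced together, so stage, dissected tissue, line and sequencing set cannot be told apart across lines.

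Total counts per library ran from 21727258 to 45341870, and 3 counts corresponded to 0.0705 to 0.128 CPM (counts scaled to library size), which covers counting error only. Summed cardiomyocyte markers were 25800 to 62700 CPM in every library. Kmt2d itself (Mll2 in the table) was 126 to 140 CPM in the Mesp1Cre mutants and 150 to 163 in their controls (log2 difference -0.21, adjusted p = 0.0764). In Tnnt2::Cre it was 113 to 122 CPM in the mutants and 126 to 167 in the controls (-0.35, adjusted p = 0.327). In Mef2cAHF::Cre the order was the opposite of the labels, with 183 to 190 CPM in the libraries labelled mutant and 142 to 153 in those labelled control (0.32, adjusted p = 0.0359). Sample titles and genotypes of that line assign the groups one way and a second line of column names in the table assigns them the other way, so every Mef2cAHF::Cre value below is for libraries "labelled mutant" and "labelled control" by title, and within the line the sign turns under the other reading. Contrasts between lines were refitted for it.

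Retinoic acid receptors bind pairs of a short hexamer, and the promoters of receptor and enzyme genes were therefore read for it. RefSeq promoters (GRCm38.p6, a short window around each start) were given for 7 of the 9 members, in 14 windows. The hexamers searched on both strands were AGGTCA as the consensus, AGTTCA as a variant of it, GGGTCA as another and GGTTCA as the last, alone or as direct repeats with 1, 2 or 5 bases between them. A hexamer of any of these spellings was present in 43.7% of 32851 promoter windows and in 5 of the 14 member windows. The repeat with 5 bases between its hexamers was present in 32 windows (0.0974%), and among the members it was found in 1, that of Rarb. The repeats with 1 and 2 bases were in 0.222% and 0.268% of all windows and in 0 of the member windows. The 100 bases before the start are given here, 5′ to 3′ on the strand of the gene, for the receptor and for the enzymes whose levels differed most in these hearts, with the hexamers of either strand in capitals.
Rarb, chr14:16575477-16575576, minus strand: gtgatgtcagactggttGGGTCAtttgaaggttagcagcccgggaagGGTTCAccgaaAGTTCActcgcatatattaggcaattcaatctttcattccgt
Aldh1a1, chr19:20601868-20601967, plus strand: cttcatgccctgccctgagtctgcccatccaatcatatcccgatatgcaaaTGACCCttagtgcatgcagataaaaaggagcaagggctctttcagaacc
Aldh1a2, chr9:71215689-71215788, plus strand: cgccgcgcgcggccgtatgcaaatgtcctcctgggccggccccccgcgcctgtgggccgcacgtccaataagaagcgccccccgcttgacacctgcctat

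The Rarb repeat, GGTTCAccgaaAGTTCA, lay at chr14:16575513-16575529, at offset -53 from the annotated start. The Aldh1a1 stretch held 1 hexamer and the Aldh1a2 stretch 0. Among 29 other retinoid genes with a promoter in the table, in 42 windows, 1 held the repeat with 5 bases between hexamers, namely Cyp26a1 (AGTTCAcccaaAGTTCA, chr19:37697776-37697792, offset -32). These are matches of letters and no binding was measured. In the mm9 annotation of the count table Rarb runs over chr14:17263356-17651381 on the minus strand, and the start of the printed stretch lies 243391 bases inside that gene, at 17407990 of mm9, where the bases before it fall in an intron. Counts were summed over all transcripts of a gene, so the starts were not told apart.

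In mm9, the build of the deposited table, Aldh1a1 lies on chr19:20676451-20717952 and Aldh1a2 on chr9:71063596-71144050, both on the plus strand. Aldh1a3 lies on the minus strand at chr7:73535781-73572363. Crabp1 lies at chr9:54612555-54620917, Crabp2 at chr3:87752615-87757294, Stra6 at chr9:57911595-58001762 and Rara at chr11:98789132-98836256, all on the plus strand. Cyp26b1 lies at chr6:84521938-84543740 on the minus strand. No annotated gene shared exon bases with any of the 9 on either strand (0 genes found). Aldh1a1 has a closely related neighbour on the same chromosome, Aldh1a7, which could share reads with it. Group means of Aldh1a7 were 0.198 to 1.1 CPM.

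Per length, as FPKM, the members differed widely in level. Crabp1 and Aldh1a2 averaged 10.8 and 10.3 FPKM over the 20 libraries and Rara 8.85. Rarb and Aldh1a1 averaged 5.17 and 5.08, Crabp2 2.17 and Cyp26b1 1.81. Stra6 (0.314) and Aldh1a3 (0.227) were the lowest. The receptors were also the steadiest members in CPM, with 2.18-fold (Rara) and 2.46-fold (Rarb) between the lowest and the highest library. Cyp26b1 spanned 5.6-fold, Stra6 22.7-fold, Crabp1 26.2-fold and Crabp2 201-fold, while Aldh1a1 and Aldh1a2 each had 1 library at 0 counts.

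**Figure D1:**
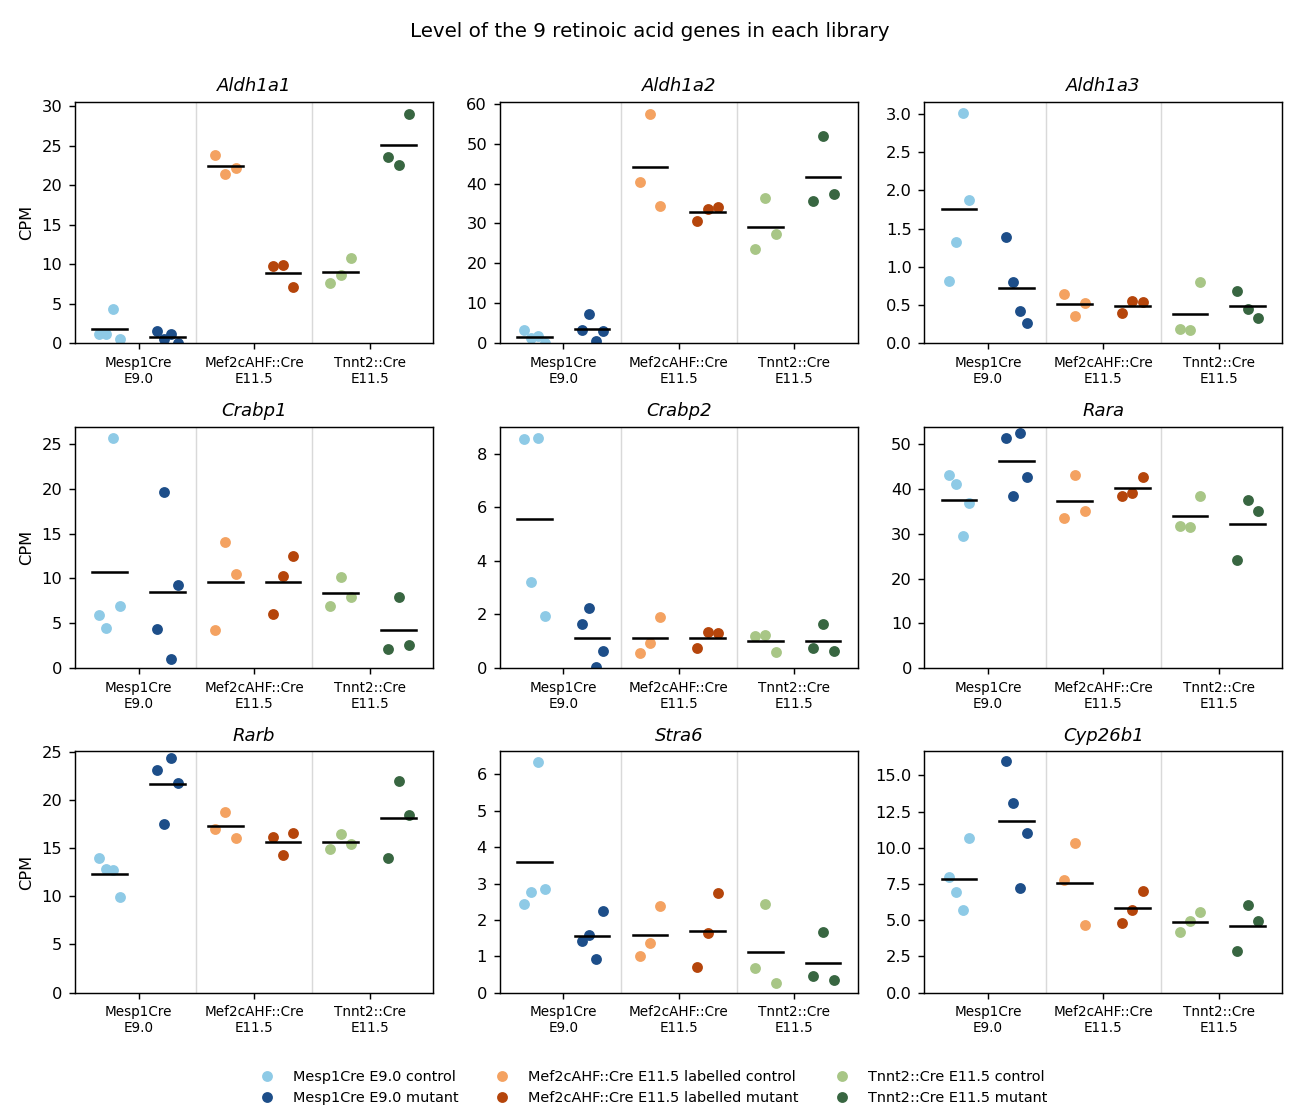
Level of each of the 9 genes in the 20 libraries (y axis, CPM, linear from 0) by Cre line and genotype (x axis), with points for libraries and bars for group means. Aldh1a1 in Tnnt2::Cre lies between 22.6 and 29.1 CPM in the mutants and between 7.68 and 10.8 in the controls, and Rarb in Mesp1Cre between 17.5 and 24.3 in the mutants and between 9.87 and 14 in the controls.

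The first question was whether loss of the second copy of Kmt2d goes with a change of retinoid genes in each Cre domain. Past a Benjamini-Hochberg adjusted p of 0.05 in edgeR's quasi-likelihood test, 1 of the 9 genes was higher in Mesp1Cre mutants (Rarb), 1 was lower in the Mef2cAHF::Cre libraries labelled mutant (Aldh1a1) and 1 was higher in Tnnt2::Cre mutants (Aldh1a1). For comparison, 6.17% of all genes tested in Mesp1Cre passed as higher and 5.29% as lower. In Mef2cAHF::Cre 2.85% passed (1.04% lower), and in Tnnt2::Cre 0.293% (0.0763% higher). In Mesp1Cre, 1 of 9 was thus near the share of all genes. Over the 9 genes the median log2 difference was -0.31 in the Mesp1Cre line, -0.040 for Mef2cAHF::Cre and 0.018 for Tnnt2::Cre, against -0.0018, -0.0067 and 0.0037 over all genes tested.

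Aldh1a1, a cytosolic retinaldehyde dehydrogenase, was the member that differed most clearly at E11.5. In Tnnt2::Cre it was 23.6, 22.6 and 29.1 CPM in the mutants and 7.68, 8.6 and 10.8 CPM in the controls. All mutant libraries were above all control libraries, as for 8.92% of all genes tested. The means were 25.1 ± 3.5 and 9.03 ± 1.6 CPM (SD, n = 3 each), a 2.79-fold difference (log2 1.48, SE 0.162, adjusted p = 0.0113). Between 1.36 and 1.62 on the log2 scale in fits that left out 1 library, the difference lost the call without control replicate 1, 2 or 3 (adjusted p = 0.0735, 0.0709 and 0.0555). With all 6 groups of the series in 1 fit the same difference of 1.48 had an adjusted p of 0.272.

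In the Mef2cAHF::Cre line Aldh1a1 was 9.81, 9.87 and 7.1 CPM in the libraries labelled mutant and 23.8, 21.4 and 22.2 CPM in those labelled control. The groups did not overlap, as for 23.9% of all genes tested in this line. By the titles the order was the reverse of that in Tnnt2::Cre. The means were 8.92 ± 1.58 and 22.5 ± 1.23 CPM (SD, n = 3 each), 2.52-fold lower in the labelled mutants (log2 -1.34, SE 0.136, adjusted p = 0.00245). By the column names it was 1.34 higher in the mutants. It was called in every fit that left out 1 library (-1.42 to -1.19) and not in the fit of 6 groups (-1.33, adjusted p = 0.384).

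At E9.0 the enzyme was near the lower end of its range. Mesp1Cre controls had 1.18, 1.15, 4.39 and 0.488 CPM, and mutants 1.6, 0.492, 1.19 and 0 CPM. The 0 of mutant replicate 4 allows up to 0.116 CPM. The groups overlapped and the difference was not past the threshold (log2 -1.12, SE 0.886, adjusted p = 0.457), and without control replicate 3 it was -0.18 (adjusted p = 0.93). Over the series the 6 group means of Aldh1a1 fell into 3 pairs of groups that overlapped within the pair. The Tnnt2::Cre mutants and Mef2cAHF::Cre labelled controls were highest, the Tnnt2::Cre controls and Mef2cAHF::Cre labelled mutants followed, and both Mesp1Cre groups were lowest.

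Aldh1a2, the main retinoic acid synthesising enzyme of the early embryo, moved in the same directions as Aldh1a1 at E11.5 by smaller amounts that did not pass the threshold. In Tnnt2::Cre it was 35.7, 52 and 37.3 CPM in the mutants and 23.6, 36.4 and 27.4 in the controls, groups that overlapped (log2 0.52, SE 0.196, adjusted p = 0.356). In Mef2cAHF::Cre it was 30.7, 33.6 and 34 CPM in the labelled mutants and 40.5, 57.5 and 34.4 in the labelled controls, groups that did not overlap by a narrow margin (-0.43, SE 0.164, adjusted p = 0.209). Of all genes tested there, 23.9% had groups that did not overlap. It passed in that line only when all genes with at least 1 count were kept, among the alternatives run (adjusted p = 0.0276). In Mesp1Cre, Aldh1a2 was 3.24, 1.28, 1.74 and 0 CPM in the controls and 3.38, 7.42, 0.512 and 3.07 in the mutants, which overlapped (1.22, SE 0.853, adjusted p = 0.396).

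The balance of the 2 enzymes was compared per length. The ratio of Aldh1a1 to Aldh1a2 was 0.73, 0.479 and 0.861 in Tnnt2::Cre mutants and 0.358, 0.26 and 0.434 in the controls, and it was 0.352, 0.324 and 0.23 in Mef2cAHF::Cre labelled mutants and 0.649, 0.411 and 0.711 in the labelled controls. Neither pair of groups overlapped. Of single genes tested, 16.9% in Tnnt2::Cre and 23.9% in Mef2cAHF::Cre had groups that did not overlap. The ratio reuses the Aldh1a1 values given above. Aldh1a2 was the more abundant enzyme in each of the 12 E11.5 libraries. At E9.0 the ratio ran from 0 to 2.78 in the 7 libraries where it could be formed, on few counts.

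Aldh1a3, which serves the eye and nose in later embryos, had the lowest mean level per length of the 9 genes. In Mesp1Cre the controls had 0.809, 1.32, 3.01 and 1.87 CPM and the mutants 1.39, 0.795, 0.426 and 0.272, which overlapped (log2 -1.26, SE 0.587, adjusted p = 0.189). At E11.5 it lay between 0.174 and 0.804 CPM in every library, with differences of -0.04 (Mef2cAHF::Cre, adjusted p = 0.971) and 0.37 (Tnnt2::Cre, adjusted p = 0.86).

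Markers of the epicardium were read beside Aldh1a1, since retinoic acid enzymes are known from that layer. In a bulk library fewer cells of a type and less RNA per cell cannot be told apart. The summed level of 8 epicardial markers (Wt1, Tbx18, Tcf21, Upk3b, Upk1b, Msln, Bnc1 and Lrrn4) was 238 to 312 CPM in Tnnt2::Cre mutants and 228 to 265 in controls, groups that overlapped. It was 207 to 215 in Mef2cAHF::Cre labelled mutants and 205 to 242 in labelled controls. In Tnnt2::Cre all 8 markers were higher in the mutants, with a median of 0.19 on the log2 scale, and 0 passed edgeR's adjusted threshold. In Mef2cAHF::Cre 1 of 8 was higher, with a median of -0.22 and 0 past it. Msln averaged under 1 CPM in both Mesp1Cre groups and the Tnnt2::Cre controls. Over the 20 libraries Aldh1a1 had a Pearson r of 0.929 with the summed epicardial level, and of 0.725 with each group's mean removed. With the summed level as a covariate, an alternative added after the data were seen, Aldh1a1 differed by 1.30 in Tnnt2::Cre (adjusted p = 0.0292) and by -1.33 in Mef2cAHF::Cre (adjusted p = 0.00809). Erythroid genes made up 1.9% to 13.1% of the Tnnt2::Cre mutant libraries and 10.3% to 15.8% of the controls, and with their level as a covariate the Aldh1a1 difference was 1.46 (adjusted p = 0.00673). In Mef2cAHF::Cre they made up 2.47% to 4.67% of the labelled mutants and 0.718% to 3.19% of the labelled controls, with all 8 higher in the labelled mutants and 1 past the threshold, and with their level as a covariate the difference was -1.48 (adjusted p = 0.0024).

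**Figure D2:**
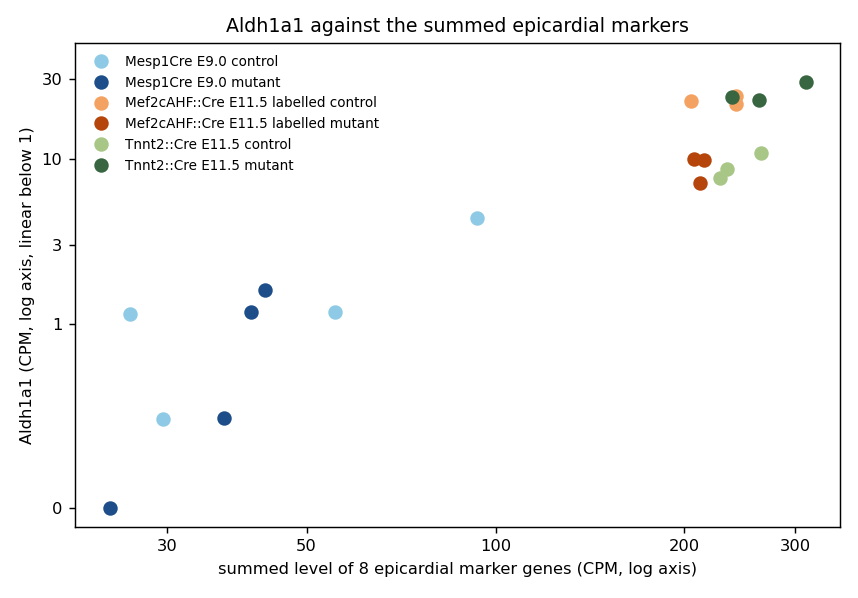
Aldh1a1 (y axis, CPM, log scale that turns linear below 1) against the summed level of 8 epicardial markers (x axis, CPM, log scale), 1 point per library, coloured by group. The 12 E11.5 libraries lie between 205 and 312 CPM of markers, and at these values Aldh1a1 falls into a range of 7.1 to 10.8 CPM and one of 21.4 to 29.1 CPM.

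Rarb, a receptor gene that retinoic acid itself induces, was the member that rose in Mesp1Cre mutants. It was 23.1, 17.5, 24.3 and 21.7 CPM in the mutants and 14, 12.8, 12.7 and 9.87 CPM in the controls. Each mutant library was above each control library, which held for 8.39% of all genes tested. The means were 21.7 ± 2.96 and 12.4 ± 1.77 CPM (SD, n = 4 each), a 1.77-fold difference (log2 0.83, SE 0.151, adjusted p = 0.00434). It was called in all 8 fits that left out 1 library (0.73 to 0.93, adjusted p from 0.00231 to 0.0154).

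Erythroid RNA also differed with genotype in this line, in the opposite direction to Rarb. The summed level of 8 erythroid genes (among them Hbb-bh1, Hba-x, Hbb-y, Hba-a1, Alas2, Slc4a1 and Epb4.2) was 1920 to 7460 CPM in the mutants, or 0.192% to 0.746% of the library, and 5420 to 17900 CPM in the controls (0.542% to 1.79%). All 8 were lower in the mutants and 5 of them fell past the threshold. The mutant with the highest erythroid level (7460 CPM) had 17.5 CPM of Rarb, the lowest of the mutants. The control with the lowest erythroid level (5420 CPM) had 12.8 CPM of Rarb. Over all libraries of the series, with each group's mean removed, Rarb had a Pearson r of -0.785 with the summed erythroid level. With the erythroid level as a covariate, also added after the data were seen, the Rarb difference was 0.54 (adjusted p = 0.355), and the count of genes past the threshold in this line was 147 in place of 1821. Endothelial markers summed to 658 to 769 CPM in the mutants and 511 to 606 in the controls. Neural crest and pharyngeal markers summed to 63.9 to 111 CPM in the mutants and 46.5 to 57.7 in the controls, with Sox10 and Foxd3 under 1 CPM on average in both. The sums of epicardial, cardiomyocyte, and foregut and liver markers overlapped between the groups. The fit with the erythroid level as a covariate cannot separate that level from genotype. The part of any of these cell types in the Rarb difference was not tested.

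**Figure D3:**
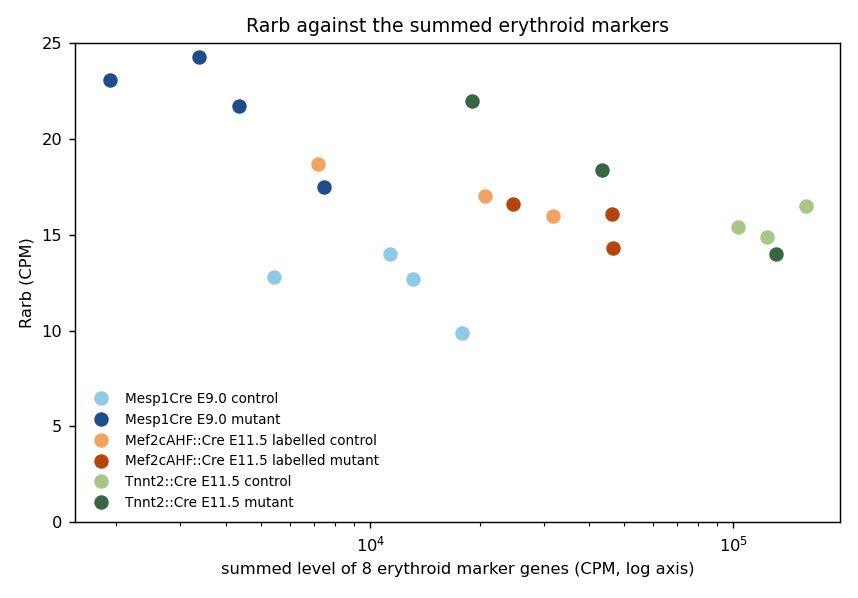
Rarb (y axis, CPM) against the summed level of 8 erythroid genes (x axis, CPM, log scale) in the 20 libraries, coloured by group. The 4 Mesp1Cre mutants lie at 17.5 CPM or more of Rarb and at 7460 CPM or less of erythroid genes, and the 4 controls at 14 CPM or less of Rarb.

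At E11.5 Rarb differed little with genotype. Tnnt2::Cre mutants had 14, 22 and 18.4 CPM and controls 14.9, 16.5 and 15.4, which overlapped (log2 0.22, adjusted p = 0.658). Mef2cAHF::Cre labelled mutants had 16.1, 14.3 and 16.6 CPM and labelled controls 17, 18.7 and 16, which overlapped too (-0.14, adjusted p = 0.545).

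Rara, the broadly expressed receptor, was 51.3, 38.5, 52.5 and 42.6 CPM in Mesp1Cre mutants and 43.2, 41.2, 29.4 and 36.8 in controls. The groups overlapped, and the difference of 0.31 (SE 0.141) was not past the threshold (adjusted p = 0.171). It was 38.5 to 42.7 CPM in Mef2cAHF::Cre labelled mutants and 33.5 to 43.2 in labelled controls (0.11, adjusted p = 0.65). In Tnnt2::Cre it was 24.1 to 37.5 CPM in mutants and 31.5 to 38.4 in controls (-0.07, adjusted p = 0.917).

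Crabp2, a carrier that hands retinoic acid to its receptors, had the largest fitted difference of the members in Mesp1Cre and missed the threshold. Controls had 8.57, 3.22, 8.59 and 1.95 CPM and mutants 1.65, 2.23, 0.0426 and 0.621 CPM. Mutant replicate 2 was above control replicate 4, so the groups overlapped. The means were 5.58 ± 3.5 and 1.14 ± 0.987 CPM (SD, n = 4 each; log2 -2.27, SE 0.713, adjusted p = 0.0578). The call passed without control replicate 4 (adjusted p = 0.0481), without mutant replicate 2 (0.0358), with all genes kept (0.0359) and in the fit of 6 groups (0.0174), and not by DESeq2 (0.0902). At E11.5 Crabp2 was 0.579 to 1.89 CPM in every library, with log2 differences of 0.01 in Mef2cAHF::Cre (adjusted p = 0.995) and 0.02 in Tnnt2::Cre (adjusted p = 0.994).

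Stra6, the retinol uptake receptor, was also lower in Mesp1Cre mutants without passing. Controls had 2.43, 2.76, 6.33 and 2.84 CPM and mutants 1.43, 1.59, 0.938 and 2.25 CPM. Each mutant was below each control, which held for 9.69% of all genes tested, and the difference was -1.19 (SE 0.41, adjusted p = 0.0809), called by DESeq2 alone among the alternatives run (0.0316). At E11.5 the gene lay between 0.278 and 2.74 CPM with overlapping groups (0.12 in Mef2cAHF::Cre, adjusted p = 0.934, and -0.45 in Tnnt2::Cre, adjusted p = 0.87).

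Crabp1, the other carrier and a marker of migrating neural crest, varied as much within groups as between them. In Mesp1Cre it was 5.92, 4.49, 25.7 and 6.87 CPM in controls and 4.3, 19.6, 0.981 and 9.24 in mutants (log2 -0.31, SE 0.691, adjusted p = 0.818). In Tnnt2::Cre it was 2.09, 7.94 and 2.56 CPM in mutants and 6.96, 10.2 and 7.98 in controls, where the groups overlapped through mutant replicate 2 alone (-0.99, SE 0.452, adjusted p = 0.438). Without that mutant the difference was -1.85 (adjusted p = 0.0278). In Mef2cAHF::Cre it was 6.08 to 12.5 CPM in labelled mutants and 4.22 to 14.1 in labelled controls (0.01, adjusted p = 0.995).

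Cyp26b1, which degrades retinoic acid, was 16, 13.1, 7.21 and 11 CPM in Mesp1Cre mutants and 7.98, 6.93, 5.74 and 10.7 in controls. The groups overlapped, and the difference of 0.61 (SE 0.253) was not past the threshold (adjusted p = 0.142). It was 4.8 to 7.02 CPM in Mef2cAHF::Cre labelled mutants and 4.69 to 10.3 in labelled controls (-0.38, adjusted p = 0.514), and 2.85 to 6.03 and 4.21 to 5.54 CPM in Tnnt2::Cre mutants and controls (-0.08, adjusted p = 0.939).

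**Figure D4:**
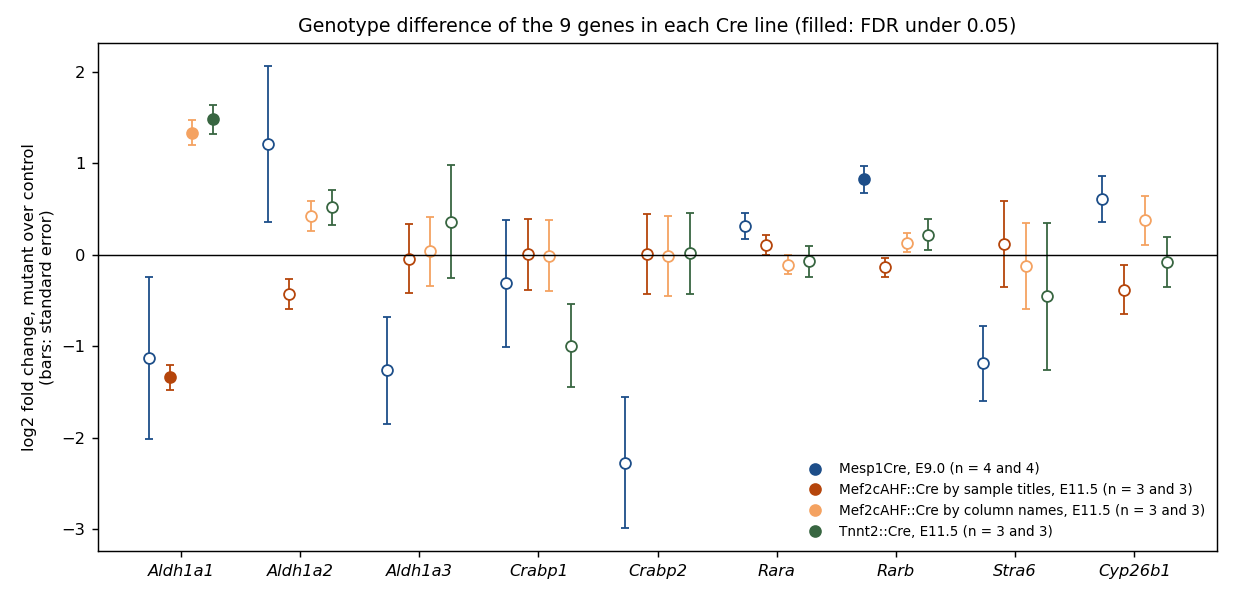
Log2 difference of mutant against control (y axis) for each of the 9 genes (x axis) in the 3 Cre lines, with Mef2cAHF::Cre by titles and by column names, from edgeR with bars of 1 SE and filled points past an adjusted p of 0.05. The filled points are Rarb in Mesp1Cre (0.83) and Aldh1a1 in Mef2cAHF::Cre (-1.34 by the titles, 1.34 by the column names) and in Tnnt2::Cre (1.48).

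Other retinoid genes, 40 in all, were listed with earlier results of these data known, so their counts are a description. Of these, 33 were tested in Mesp1Cre, 24 were higher in the mutants and 5 rose past the threshold, with a median of 0.27. Of all genes tested in this line, 6.17% passed as higher. All 5 came from the 11 tested genes listed as responsive to retinoic acid, among them Rarres2 (log2 2.27, adjusted p = 0.0286), the inflow and left ventricular transcription factor Tbx5 (0.74, adjusted p = 0.00715), and the homeobox cofactors Meis1 (0.44, adjusted p = 0.00889) and Meis2 (0.39, adjusted p = 0.0152). With the erythroid level as a covariate, lower in these mutants as given above, 0 of the 5 passed (adjusted p from 0.112 to 0.492, log2 differences from 0.46 to 1.93). That fit cannot separate the erythroid level from genotype. Tbx5 averaged 239 ± 37.1 CPM in the mutants and 145 ± 30 in the controls (SD, n = 4 each). Cyp26a1, whose promoter holds the same kind of repeat as that of Rarb, differed by 0.96 (adjusted p = 0.263). In Mef2cAHF::Cre 1 of 33 passed, the transglutaminase Tgm2 (0.81 higher in the labelled mutants, adjusted p = 0.00612). In Tnnt2::Cre 0 of 35 passed edgeR's adjusted threshold, and the median was -0.026.

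Whether the genotype differences themselves differed between lines was tested in 1 fit of the 6 groups. For Mesp1Cre against Mef2cAHF::Cre, 11.3% of all genes differed, and Rarb was the member among them (difference 0.94, SE 0.213, adjusted p = 0.00662), which by the column names was 0.67 (adjusted p = 0.114), where 1.63% of genes passed. For Mef2cAHF::Cre against Tnnt2::Cre, 3.19% of genes differed, and Aldh1a1 was the member among them (-2.81, SE 0.737, adjusted p = 0.0396), with an adjusted p of 0.117 by DESeq2. By the column names the difference was -0.14 (adjusted p = 1), and 0 genes of the table then passed edgeR's adjusted threshold, with 472 (2.57%) at an unadjusted p under 0.05. Mesp1Cre and Tnnt2::Cre, whose labels do not conflict, differed in 3.04% of genes and in 0 of the 9 members by edgeR, with -2.63 for Aldh1a1 (adjusted p = 0.0704), -2.30 for Crabp2 (adjusted p = 0.196) and 0.59 for Rarb (adjusted p = 0.13). So the higher Rarb of Mesp1Cre mutants was not shown to differ from the 0.22 of Tnnt2::Cre mutants. Of 38 other retinoid genes tested, 1 differed in this last contrast (Meis1, 0.60) and 1 between Mef2cAHF::Cre and Tnnt2::Cre (Tgm2, 1.07 by the titles). By the column names Tgm2 differed by -0.56 (adjusted p = 1). Between Mesp1Cre and Mef2cAHF::Cre 5 were higher and 2 lower by the titles, and 1 was higher (Tbx5, 1.19) and 0 lower by the column names.

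Between E9.0 and E11.5 whole hearts Aldh1a2 had the largest difference of the 9 genes. In this contrast of Tnnt2::Cre against Mesp1Cre controls, 39.6% of all genes passed the threshold (21.7% higher and 17.9% lower), and of the 9 members 2 were higher at E11.5 and 3 lower. Aldh1a2 went from 3.24, 1.28, 1.74 and 0 CPM to 23.6, 36.4 and 27.4, where the 0 of control replicate 4 allows up to 0.122 CPM. All E11.5 controls were above all E9.0 controls, which held for 24.4% of all genes tested. The fitted difference was 18.3-fold (SE 0.585 on the log2 scale, adjusted p = 1.33e-05). Aldh1a1 was 4.99-fold higher (2.32, SE 0.524, adjusted p = 0.00149). Without Mesp1Cre control replicate 3 the log2 difference of Aldh1a1 was 3.25, and without control replicate 1 that of Aldh1a2 was 4.84.

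Lower at E11.5 were Crabp2 (log2 -2.48, SE 0.713, adjusted p = 0.00897), Aldh1a3 (-2.18, SE 0.619, adjusted p = 0.00828) and Stra6 (-1.67, SE 0.647, adjusted p = 0.0468). Crabp2 averaged 5.58 ± 3.5 CPM at E9.0 (SD, n = 4) and 0.993 ± 0.352 at E11.5 (SD, n = 3). Crabp2 kept the call in all 7 fits that left out 1 library. Aldh1a3 lost it without Tnnt2::Cre control replicate 2 (adjusted p = 0.0513) and was -3.24 without control replicate 3 of that line. Stra6 lost it in 5 of the 7 (all but without Tnnt2::Cre control replicate 2, where it was -2.87, and Mesp1Cre control replicate 1), and in a fit of the control whole hearts alone (adjusted p = 0.0527). Rarb (0.33, adjusted p = 0.084), Cyp26b1 (-0.68, adjusted p = 0.0795), Rara (-0.15, adjusted p = 0.468) and Crabp1 (-0.36, adjusted p = 0.716) did not pass. Cyp26b1 passed in the fit of the control whole hearts alone (-0.71, adjusted p = 0.0341) and without Mesp1Cre control replicate 3 (adjusted p = 0.0499).

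The same contrast in mutant whole hearts, where 42.5% of all genes passed, shared the rise of Aldh1a1 and Aldh1a2. Aldh1a1 was 31-fold higher (log2 4.95, SE 0.58, adjusted p = 1.64e-06) and Aldh1a2 was higher too (3.52, adjusted p = 3.68e-05). Cyp26b1 (-1.36, adjusted p = 0.00128) and Rara (-0.52, adjusted p = 0.0113) were lower at E11.5. Crabp2 (-0.18, adjusted p = 0.857), Aldh1a3 (-0.56, adjusted p = 0.477) and Stra6 (-0.92, adjusted p = 0.272) did not pass, and Rarb, with -0.26 (adjusted p = 0.174), had the opposite sign to the controls. The difference between these contrasts is the same quantity as the difference of genotype effects between Mesp1Cre and Tnnt2::Cre given above, for which 0 members passed.

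**Figure D5:**
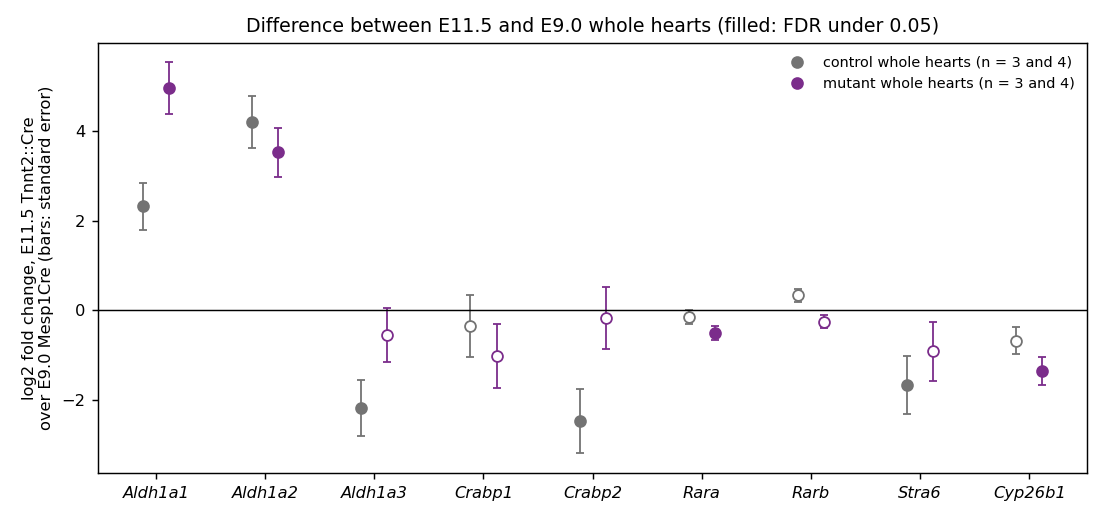
Log2 difference of E11.5 against E9.0 whole hearts (y axis) for each of the 9 genes (x axis), in controls and in mutants, from edgeR with bars of 1 SE and filled points past an adjusted p of 0.05. Aldh1a2 and Aldh1a1 are higher at E11.5 in both (18.3-fold and 4.99-fold in controls, log2 3.52 and 4.95 in mutants), and Crabp2 (-2.48), Aldh1a3 (-2.18) and Stra6 (-1.67) are lower past the threshold in controls.

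RNA of cell type markers differed with stage too. The 8 epicardial markers rose together from E9.0 to E11.5, all 8 past the threshold with a median of 2.08 on the log2 scale, and their sum was 26.2 to 93.5 CPM in E9.0 controls and 228 to 265 in E11.5 controls. The 8 erythroid genes all rose as well. Of the other retinoid genes, 15 of 38 tested were higher at E11.5 and 5 lower, with a median of 0.40 against 0.029 over all genes tested. The higher genes included the transcriptional repressor Hic1 (3.33, adjusted p = 4.23e-05) and the retinaldehyde reductase Dhrs3 (2.12, adjusted p = 2.29e-05), and in all 5 of 9 tested oxidoreductases and 4 of 5 receptors and carriers. Also higher were Adh1 (2.82), Ttr (2.72), Rarres2 (2.47), the receptor Rarg (1.85), Tgm2 (1.10), Dhrs4 (0.98) and Rdh11 (0.83). Cyp26a1 (-1.76, adjusted p = 0.0332), Tbx5 (-1.19, adjusted p = 4.34e-05), Meis1 (-0.58, adjusted p = 2.72e-05) and Meis2 (-0.47, adjusted p = 0.000371) were lower.

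Right ventricle with outflow tract was compared with whole heart at E11.5 over both genotypes, so that the Mef2cAHF::Cre labels enter only as a balanced term. Here 38.6% of all genes differed and 0 of the 9 members passed edgeR's adjusted threshold, with 1 (Cyp26b1) at an unadjusted p under 0.05, as for 46.8% of all genes. Cyp26b1 differed by 0.49 (adjusted p = 0.0926), Stra6 by 0.77 (adjusted p = 0.222), Crabp1 by 0.70 (adjusted p = 0.323) and Rara by 0.23 (adjusted p = 0.135), all higher in right ventricle and outflow tract. Aldh1a1, Aldh1a2, Aldh1a3, Crabp2 and Rarb differed by -0.09, 0.13, 0.21, 0.18 and -0.03. Stra6 and Cyp26b1 both passed without Tnnt2::Cre mutant replicate 2, Stra6 passed without Tnnt2::Cre control replicate 2 (1.37, adjusted p = 0.0287) and Cyp26b1 without Mef2cAHF::Cre labelled control replicate 3 (0.63, adjusted p = 0.0318). Of the other retinoid genes 11 of 38 were higher, among them Hoxa3 (2.01), Meis2 (1.07) and Rarg (0.92), and 10 lower, among them Hoxb1 (-2.05), Tbx5 (-1.57), Nr2f1 (-1.49) and Nr2f2 (-1.34).

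The genes whose log2 CPM followed each member most closely over the 20 libraries are given as a description, since libraries of 1 line share stage, tissue and sequencing. Aldh1a1 was most like Lrrn4 (Pearson r = 0.96), Pear1 (0.95) and 2610018G03Rik (0.94), and these were 0.90, 0.87 and 0.71 after each group's mean was removed. Lrrn4, a mesothelial gene on the epicardial list, differed in the same directions as Aldh1a1 at E11.5, by smaller amounts that did not pass the threshold. It averaged 34.5 ± 8.83 CPM in Tnnt2::Cre mutants and 29.3 ± 2.31 in controls (log2 0.24, adjusted p = 0.629), and 31.8 ± 0.465 and 36.1 ± 3.23 CPM in Mef2cAHF::Cre labelled mutants and labelled controls (-0.18, adjusted p = 0.291).

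Aldh1a2 was most like Pdgfra (0.95), Sfrp1 (0.95) and Ptgr1 (0.94), with 0.94, 0.76 and 0.67 after centring. Rarb was most like Ndrg2, Sema4g and Vldlr, each at 0.90, and Rara like Maml1 (0.87), Pcnx (0.87) and 1700021K19Rik (0.85). Cyp26b1 was most like Zfp239 (0.91), Zfp169 (0.87) and Tll1 (0.85). For Crabp1 (Ttf1 and the clone-named AC091106.2 and AL672047.4, 0.76 to 0.79), Crabp2 (Rnf31, Ifih1 and AC113285.1, 0.81 to 0.84) and Stra6 (Ephb2, U6 and Wasf3, 0.78 to 0.81) the likeness was looser. Among the members, Aldh1a1 and Aldh1a2 had r = 0.76 over all libraries and 0.16 after centring. Within groups Crabp1 and Crabp2 (0.76), Aldh1a2 and Crabp2 (0.72) and Rara and Rarb (0.68) were the most alike pairs. Rara and Rarb also had centred r of -0.79 and -0.79 with the summed erythroid level.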

How the data were processed

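RNA-seq of 20 libraries was analysed from the processed table. The authors aligned reads to mm9 with TopHat2 2.0.8b (submitters' processing notes). The study's methods name featureCounts for assigning reads to genes, while the deposited counts and FPKM are both named as computed by USeq. Whether counting used strand is not given in the sources used here. The deposited counts are whole numbers per gene. The deposited FPKM values, scaled to gene length and library size, served only to compare genes and in alternatives on the log2(FPKM + 0.1) and log2(FPKM + 1) scales. The 20 deposited columns of variance-stabilised log2 values were not used. The labels name an amplification kit and the study's methods a different library kit.

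Groups followed sample titles. Mesp1Cre libraries are E9.0 by title, while a protocol text common to all samples names E11.5. Counts were tested with edgeR 4.0.16 (R 4.3.3): filterByExpr, TMM and the quasi-likelihood F test per Cre line, or 1 fit of the 6 groups for stage, region and differences between lines, with Benjamini-Hochberg adjustment over all genes tested and a threshold of 0.05. CPM used TMM over all 20 libraries, log2 CPM a prior count of 2, and SE is the log2 difference divided by the square root of F. DESeq2 1.42.0 and limma 3.58.1 served as alternatives. Scripts were tested on simulated data. The 9 members, the marker lists and the other retinoid genes were chosen with earlier results of these data known. Of the other retinoid genes, those past the threshold were named by size of the difference, and for each member averaging at least 1 CPM the 3 genes of highest Pearson r. Some genes of these lists are not reported here by name. The levels printed for Tbx5, Aldh1a7 and Lrrn4, and Meis1 and Meis2 between stages, were picked after their values were seen. No 2 libraries of a group agreed within sampling noise (chi-square per degree of freedom from 9.56 to 233). Replicates are separate samples by label. The study counts them as hearts per genotype, and whether a library held 1 heart is not given in the sources used here. Same-numbered libraries did not deviate together (correlations of deviations from group means from -0.0358 to 0.177).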

Additional observations from a re-analysis of the deposited data

Results flagged for a closer look

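In the Mesp1Cre controls, replicate 3 stood apart for 2 members. Its Crabp1 was 25.7 CPM against 4.49 to 6.87 in the other 3, and its Stra6 was 6.33 CPM against 2.43 to 2.84, gaps of 0.888 and 0.893 of the range. Of 18 sets of 4 libraries looked at, 2 were marked, and chance marks about 1 in 20. The same library had the highest Aldh1a1 (4.39 CPM) and Aldh1a3 (3.01 CPM) of its group, the highest summed epicardial level (93.5 CPM) and the highest summed foregut and liver level (13.5 CPM against 0.948 to 2.46), and the part of these cells in its values was not tested.

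The genotype difference of Rarb was 0.94 higher on the log2 scale in Mesp1Cre than in Mef2cAHF::Cre (edgeR interaction, adjusted p = 0.00662), and that of Aldh1a1 was -2.81 in Mef2cAHF::Cre relative to Tnnt2::Cre (adjusted p = 0.0396). Both used the titles of the Mef2cAHF::Cre samples, and neither passed by the column names.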

How the results depend on the processing

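Over 756 member values under alternatives, 655 kept direction and side of the threshold, 19 lost a call, 16 gained one and 66 changed sign, of which 1 had been called (Aldh1a1 by the column names). Aldh1a3 and Crabp2 stayed below 2 CPM in every E11.5 library, so their values rest on few counts. The causes of the changes below were not tested.

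Genes past the threshold ran from 1052 to 2161 in Mesp1Cre, 75 to 662 in Mef2cAHF::Cre and 4 to 896 in Tnnt2::Cre when 1 library was left out, against 1821, 482 and 50. The extremes came without Mesp1Cre mutant replicate 1 (1052), without Mef2cAHF::Cre labelled mutant replicate 2 (75), without Tnnt2::Cre control replicate 3 (4) and without Tnnt2::Cre mutant replicate 1 (896). Mesp1Cre control replicates 1 and 4 (1133 and 1190), Mef2cAHF::Cre labelled mutant replicates 1 and 3 (78 and 148), Tnnt2::Cre mutant replicate 3 (17) and control replicates 1 and 2 (14 and 17) moved the count by over 1.5 times too. Members called lower ran from 0 to 1 in Mesp1Cre and in Tnnt2::Cre, members called higher from 0 to 1 in Tnnt2::Cre and from 0 to 2 between regions. Under other settings Mesp1Cre gave 1 member lower by DESeq2, with all genes kept and in the fit of 6 groups (3593 genes). Mef2cAHF::Cre gave 1078 genes by DESeq2, 1311 with all genes kept (2 members lower), 291 and 253 on FPKM with 0.1 and 1 added, and 129 with 0 members lower in the fit of 6 groups, while the column names gave 1 higher and 0 lower. Tnnt2::Cre gave 366 genes by DESeq2, 120 with all genes kept, 22 and 19 on FPKM, and 82 with 0 members higher in the fit of 6 groups. DESeq2 gave 1259 genes for Mesp1Cre against Tnnt2::Cre and 1041, with 0 members lower, for Mef2cAHF::Cre against Tnnt2::Cre. The column names gave 299 genes and 0 members higher for Mesp1Cre against Mef2cAHF::Cre, and 0 genes and 0 members lower for Mef2cAHF::Cre against Tnnt2::Cre.

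A replicate block gave 1384, 517 and 28 genes in Mesp1Cre, Mef2cAHF::Cre and Tnnt2::Cre and left Rarb at 0.83 in Mesp1Cre (adjusted p = 0.0124). It changed no call of a member. Crabp2 in Tnnt2::Cre became -0.028. The labels do not say that a shared number marks a litter or batch, so the numbers were not taken to pair the libraries.

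Covariates added after the data were seen gave, for the erythroid level, 147 genes with 0 members higher in Mesp1Cre and 117 with 1 lower in Tnnt2::Cre (Crabp1, -2.11, adjusted p = 0.0367), and for the epicardial level 17 genes in Tnnt2::Cre. Signs changed with the erythroid level for Crabp1 in Mesp1Cre (1.20), Crabp2 (-0.22) and Cyp26b1 (0.20) in Mef2cAHF::Cre, and Crabp2 (-0.52) and Rarb (-0.12) in Tnnt2::Cre. With the epicardial level they changed for Crabp1 in Mesp1Cre (0.34), Crabp1 (-0.12), Crabp2 (-0.54), Stra6 (-0.32) and Cyp26b1 (0.12) in Mef2cAHF::Cre, and Stra6 in Tnnt2::Cre (0.34).

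Signs also changed in Mef2cAHF::Cre for Crabp1 (-0.0033 by DESeq2, -0.030 and -0.037 on FPKM), Crabp2 (-0.0022, -0.025 and -0.035), Rara (-0.018 and -0.018) and Stra6 (-0.078 and -0.0092). The column names turned all 9 there, to 1.34 (Aldh1a1), 0.43 (Aldh1a2), 0.039 (Aldh1a3), -0.0071 (Crabp1), -0.0083 (Crabp2), -0.11 (Rara), 0.14 (Rarb), -0.12 (Stra6) and 0.38 (Cyp26b1), and between lines Aldh1a1 (-2.49), Rara (-0.037) and Cyp26b1 (0.47). On FPKM, Rara (0.027 and 0.028) and Cyp26b1 (0.012) turned in Tnnt2::Cre, and Aldh1a1 (0.019 and 0.014) and Rarb (0.082 and 0.067) between regions. Rarb was -0.26 between stages in mutants. Leaving out 1 library turned Crabp1 in Mesp1Cre (-1.12 to 0.59) and between stages (-0.61 to 0.54), Aldh1a3 (-0.24 to 0.17), Crabp1 (-0.35 to 0.40), Crabp2 (-0.31 to 0.58) and Stra6 (-0.43 to 0.53) in Mef2cAHF::Cre, Rara (-0.19 to 0.11), Crabp2 (-0.52 to 0.26), Stra6 (-1.51 to 0.75) and Cyp26b1 (-0.33 to 0.18) in Tnnt2::Cre, and Crabp2 (-0.093 to 0.44) and Rarb (-0.11 to 0.047) between regions.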
